A study of Drosophila melanogaster with 9 samples.

Results

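Merging of overlapping ATAC-seq peaks of 9 libraries gave 75937 intervals, of which 26486 were distal and noncoding, that is, over 1 kb from every annotated transcription start site (TSS) and off coding sequence. Among these, 969 intervals carried a peak in each of the 5 ovary libraries but in none of the 4 libraries of ovarian somatic cells (OSCs), which is 3.66% of the distal noncoding intervals. These ovary-only distal intervals were chosen by that presence, so their peaks in ovaries and their lack of peaks in OSCs are descriptions and not findings. Regions on 3L and X where follicle cells amplify their DNA were left out. By position, 665 of the 969 lay in introns and 242 lay between genes, while 59 lay in untranslated regions and 3 in noncoding exons, so that "intronic and intergenic" describes most of them. They fell into 2 groups by width that did not behave alike: 543 broad intervals (111 to 1095 bp, median 360 bp) and 426 narrow intervals (93 to 101 bp, median 93 bp). This division was made after the widths were seen, and each result is given for the broad and the narrow intervals separately.

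The ovary libraries came from 2 strains of Drosophila melanogaster. The vas-GFP strain (w[*]; TI{TI}vas[AID:EGFP]), which carries an EGFP and AID tag at the germline gene vas, gave 3 libraries, made from 6, 10 and 30 ovaries (libraries 1, 2 and 3), and w1118, a white-eyed laboratory strain, gave 2 libraries of 6 ovaries each. The flies of both strains were given yeast extract in the days before dissection. The OSC libraries were 2 of l(3)mbt knockout cells (Δl(3)mbt) and 2 of wild-type cells. OSCs are a cultured line derived from the follicle cells around the germline, and they hold no germ cells, whereas whole ovaries hold germ cells, follicle cells and sheath muscle. Vas-GFP library 1 and both w1118 libraries matched in the number of ovaries, and vas-GFP libraries 2 and 3 held more. Tagmentation time was varied among the whole-ovary experiments and is not given for each library in the sources used here, so its part in the strain differences was not tested.

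ATAC-seq reads out DNA that a transposase can reach. Open DNA far from a TSS often marks enhancers, short stretches bound by transcription factors that act on a promoter at a distance, and in the fly ovary such elements are known to drive expression in germline stem cells, nurse cells or subsets of follicle cells. Ovo is a zinc finger factor of the female germline. GAGA factor opens chromatin at GA-rich sequence, Zelda is a maternally supplied factor that opens the early embryonic genome, and Traffic jam is a Maf factor of the somatic gonad. In a whole-tissue library, a weak peak from few cells and a weak peak in many cells cannot be told apart.

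To show the DNA in question, windows of 100 bases either side of the summit in w1118 library 1 (dm6 plus strand, from the RefSeq assembly) are given for 10 broad intervals on arms 2L, 3L, 3R and X. Capitals mark matches on either strand to the motifs searched that occur in these windows, which are GAGAG (GAGA factor), CCGTTA (Ovo), CAGGTAG (Zelda), CACGTG (E-box), TTCNNNGAA (STAT), TTGCNNAA (C/EBP), GGAATG (Scalloped), TGCTGA (Maf core), TGANTCA (AP-1) and TATCGATA (DREF). Touching or overlapping matches form a single run of capitals. The window in cic, the strongest broad interval, and those in genes of the gene lists come first, and dally, tna and Glut4EF are shown as the strongest remaining broad intervals inside a protein-coding gene with an Ovo, a Zelda or an E-box match, a choice made after the values were seen.
cic (chr3R:20274660-20274860): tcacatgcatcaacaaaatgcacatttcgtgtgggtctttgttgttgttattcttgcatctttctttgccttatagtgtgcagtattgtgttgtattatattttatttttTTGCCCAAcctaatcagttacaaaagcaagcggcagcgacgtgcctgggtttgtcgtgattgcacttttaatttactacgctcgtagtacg
bru1 (chr2L:12272521-12272721): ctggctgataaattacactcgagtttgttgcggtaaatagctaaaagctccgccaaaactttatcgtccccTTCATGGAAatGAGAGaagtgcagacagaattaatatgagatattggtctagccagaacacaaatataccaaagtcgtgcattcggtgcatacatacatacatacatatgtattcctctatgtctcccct
orb (chr3R:23279581-23279781): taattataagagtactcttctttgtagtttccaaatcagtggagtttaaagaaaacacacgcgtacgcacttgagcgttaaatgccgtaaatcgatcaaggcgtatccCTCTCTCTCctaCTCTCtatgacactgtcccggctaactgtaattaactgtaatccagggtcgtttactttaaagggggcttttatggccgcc
osk (chr3R:8933705-8933905): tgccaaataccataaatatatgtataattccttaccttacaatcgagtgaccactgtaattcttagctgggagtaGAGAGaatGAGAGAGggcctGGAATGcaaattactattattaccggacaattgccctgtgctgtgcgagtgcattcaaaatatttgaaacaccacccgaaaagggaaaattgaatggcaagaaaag
tkv (chr2L:5230912-5231112): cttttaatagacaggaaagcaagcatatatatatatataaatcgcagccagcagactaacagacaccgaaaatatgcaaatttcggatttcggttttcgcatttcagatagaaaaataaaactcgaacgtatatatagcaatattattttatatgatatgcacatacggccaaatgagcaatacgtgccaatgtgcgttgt
Eip75B (chr3L:18014345-18014545): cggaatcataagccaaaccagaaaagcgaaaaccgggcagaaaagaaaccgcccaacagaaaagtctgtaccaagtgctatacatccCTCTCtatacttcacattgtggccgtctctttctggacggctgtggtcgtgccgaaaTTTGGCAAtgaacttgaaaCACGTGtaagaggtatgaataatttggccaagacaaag
Hr4 (chrX:1989124-1989324): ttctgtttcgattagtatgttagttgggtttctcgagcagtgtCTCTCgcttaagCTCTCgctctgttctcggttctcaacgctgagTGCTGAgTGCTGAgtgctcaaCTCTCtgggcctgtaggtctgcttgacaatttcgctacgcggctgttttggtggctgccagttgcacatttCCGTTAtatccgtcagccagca
dally (chr3L:8856129-8856329): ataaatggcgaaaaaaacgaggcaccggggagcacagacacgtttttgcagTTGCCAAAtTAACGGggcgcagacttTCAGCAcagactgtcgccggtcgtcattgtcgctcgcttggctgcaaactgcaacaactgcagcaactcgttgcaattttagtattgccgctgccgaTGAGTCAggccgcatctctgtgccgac
tna (chr3L:10862657-10862857): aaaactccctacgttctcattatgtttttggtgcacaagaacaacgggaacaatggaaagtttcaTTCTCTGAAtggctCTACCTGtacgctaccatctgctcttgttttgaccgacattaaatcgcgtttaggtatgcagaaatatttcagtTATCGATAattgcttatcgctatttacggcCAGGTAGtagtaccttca
Glut4EF (chr3R:9917347-9917547): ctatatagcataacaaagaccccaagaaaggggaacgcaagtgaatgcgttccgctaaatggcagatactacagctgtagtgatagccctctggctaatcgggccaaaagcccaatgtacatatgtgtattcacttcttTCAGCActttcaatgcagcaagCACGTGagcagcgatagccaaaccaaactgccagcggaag
For contrast, 2 narrow intervals are given with 20 bases on either side, the interval itself in capitals.
dysf (chr3R:26080909-26081042): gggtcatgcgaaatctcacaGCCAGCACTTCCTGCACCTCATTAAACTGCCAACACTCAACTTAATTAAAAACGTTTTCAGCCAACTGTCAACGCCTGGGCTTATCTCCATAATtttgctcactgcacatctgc
prage (chrX:1813931-1814065): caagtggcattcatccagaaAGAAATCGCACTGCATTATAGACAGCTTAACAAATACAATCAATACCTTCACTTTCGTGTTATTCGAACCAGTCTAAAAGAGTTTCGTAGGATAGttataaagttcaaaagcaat

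GAGAG or its complement stood in the windows of bru1, orb, osk, Eip75B and Hr4, the window in Hr4 also held a Maf core repeated side by side and an Ovo match, and that in tkv held no match to any of the 15 motifs. A match is a description of the sequence and not evidence of binding.

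The peak lists held 22557, 20107 and 16588 peaks in vas-GFP ovaries, against 24890 and 23170 in w1118 ovaries, and 36659 and 27067 peaks in Δl(3)mbt OSCs, against 59420 and 22037 in wild-type OSCs. Read depth is not recorded in peak lists. As a check of tissue, promoter peaks (within 1 kb of a TSS) were present at 7 of 7 germline markers and 7 of 7 follicle markers in every ovary library, and at 4 to 5 germline and 6 to 7 follicle markers in the OSC libraries. AGO3, a germline piRNA factor, had no promoter peak in any OSC library, but vas, nos and ovo had one in all 4, so promoter peaks alone did not mark germ cells. Of other cell types, 2 to 4 of 4 muscle, 1 of 3 neuron, 1 to 2 of 3 hemocyte and 1 of 2 trachea markers had a promoter peak in ovaries. In OSC libraries 2 to 4 muscle, 1 to 3 neuron, 1 to 3 hemocyte and 1 to 2 trachea markers did. These promoter peaks thus did not mark other cell types of the whole ovary either. Among pairs of libraries of the same tissue, none shared a peak with the same edges and values. Members are not replicates of each other, and the labels do not say whether the libraries of a group came from separate cultures or crosses, so p-values measure the spread between these libraries.

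The narrow intervals were of nearly fixed size. Of the 426, 297 were 93 bp wide, 84 were 94 bp and 36 were 95 bp, which is 20 to 22 bp over the 73 bp to which the peak caller was set to extend each read end. Their start was the same base in all 5 ovary libraries for 371 of 426, as against 5 of the 543 broad intervals, whose starts differed by a median of 84 bp between libraries. A narrow merged interval leaves little room for starts to differ, so part of this contrast follows from the division by width. Their fold enrichment, the ratio of the signal at the summit to the local background of that library, was higher: the median over the narrow intervals was 8.72, against 5.38 over the broad ones. The central 21 bases had a median GC content of 28.6% in the narrow intervals and 47.6% in the broad ones, with flanks (to 100 bases either side) at 37.8% and 44.4%. Ovary-only intervals of 110 bp or less, taken anywhere in the genome, lay within 1 kb of a TSS in 19.8% of 596 cases, beside the 23.6% of all bases that lie there, whereas 48.6% of the 1136 wider ones did. What makes these peaks was not tested.

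Peaks 92 to 96 bp wide made up 10.1%, 7.52% and 6.14% of peaks in vas-GFP ovaries and 7.66% and 7.79% in w1118 ovaries, against 2.65% and 2.73% in Δl(3)mbt OSCs and 2.30% and 2.57% in wild-type OSCs. All 5 ovary libraries were above all 4 OSC libraries. This is a description with no test, since the width class was noticed among members chosen for ovary-only peaks, and the 426 narrow members are part of the counted peaks (1019 in vas-GFP library 3). Peaks of exactly 93 bp numbered 510 to 1390 in ovary libraries, against 128 to 314 in OSC libraries.

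**Figure D1:**
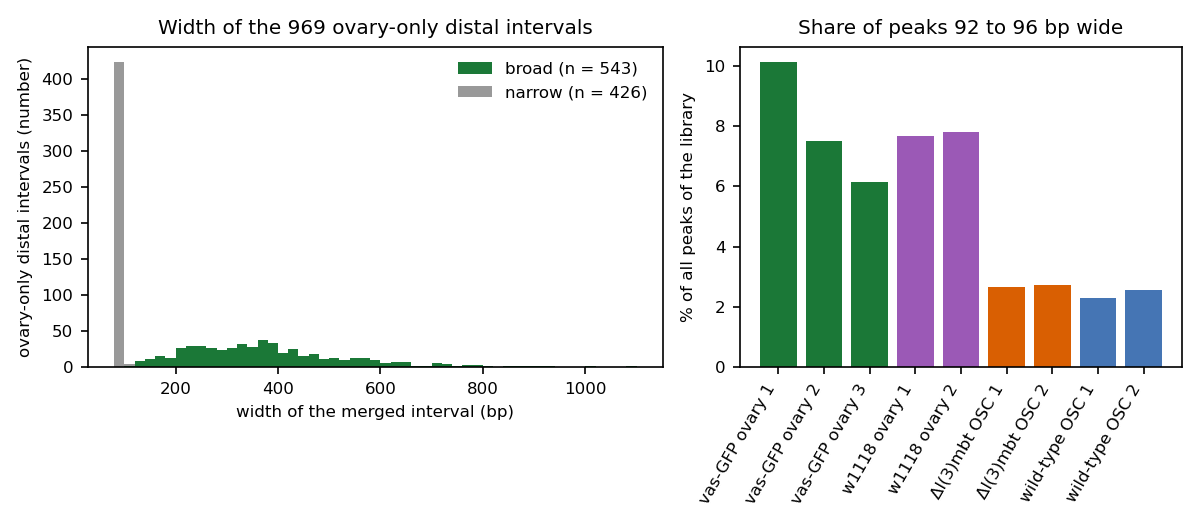
Left, number of ovary-only distal intervals by width in bp (bins of 20 bp), with the 543 broad and 426 narrow intervals stacked. Right, percent of all peaks of each library that were 92 to 96 bp wide, with 1 bar per library. The narrow intervals stand as a single column near 93 bp, and the ovary bars (6.14% to 10.1%) are all above the OSC bars (2.30% to 2.73%).

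Ranked by median fold enrichment over the 5 ovary libraries, 14 of the 15 strongest members were narrow. The highest lay in the untranslated region of Sox21b, a Sox-family gene, with fold enrichments of 60.8, 54.3 and 43.0 in vas-GFP ovaries, against 49.1 and 51.1 in w1118 ovaries. Next was an interval 9957 bp from a TSS and nearest to that of CG13978 (52.5, 47.4 and 45.7 in vas-GFP, against 36.0 and 44.7 in w1118). The interval in an intron of dysf, which encodes a bHLH-PAS transcription factor of the tracheal system, had 54.1, 50.7 and 42.3 in vas-GFP and 38.8 and 44.2 in w1118. The strains overlapped at Sox21b and dysf. The remaining narrow ones among the 15 lay in or nearest to prage, Dys, B-H2, step, Frq2, para, CG6244, CG34106, amon, CG42747 and Wnt4, with medians between 20.8 and 38.5. Among these, para encodes a sodium channel subunit, Dys dystrophin and amon a prohormone convertase. Over the gene lists used below, narrow intervals were hosted by 2 of 11 neuronal and 1 of 14 muscle genes, beside 323 of 13968 protein-coding genes. The shares were higher for 2 of 4 tracheal, 4 of 16 ecdysone and 4 of 16 follicle transcription factor genes. They were lowest for 0 of 18 eggshell and yolk, 0 of 13 housekeeping and 0 of 8 hemocyte genes. List genes differ in length, with a median of 31750 bp in the neuronal list, against 2164 bp over all protein-coding genes. Over the narrow intervals, the peak with the lowest value in any library still had a fold enrichment of 2.43.

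The only broad interval among the 15, and the strongest of the 543, spanned 714 bp of an intron of cic, 17875 bp from the nearest TSS. The gene encodes Capicua, an HMG-box repressor that EGFR and Torso signalling relieve. Its fold enrichments were 26.0, 21.7 and 11.7 in vas-GFP ovaries, against 26.0 and 24.5 in w1118 ovaries, so vas-GFP library 3 was lowest and the strains overlapped. The 14 broad intervals next in rank, named after their values were seen, had medians between 13.5 and 19.3. In gpp, which encodes the H3K79 methyltransferase, values were 17.7, 17.8 and 17.1 in vas-GFP and 11.3 and 17.6 in w1118. In mamo, a BTB zinc finger gene needed in the maternal germline, values were 19.5, 10.2 and 4.89 in vas-GFP and 17.5 and 18.1 in w1118, the widest spread among these. The 899-bp interval in Glut4EF varied least, with 16.6, 18.9 and 17.9 in vas-GFP and 16.1 and 16.9 in w1118.

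The interval in Pka-C3, a catalytic subunit of protein kinase A, had 20.0, 14.7 and 15.4 in vas-GFP and 14.3 and 17.8 in w1118. In JIL-1, which encodes a histone H3 kinase, values were 9.67, 13.9 and 14.4 in vas-GFP and 14.3 and 15.8 in w1118. In nmo (Nemo, a MAP-kinase-like kinase), every vas-GFP value (12.04, 14.3 and 10.8) was below both w1118 values (20.6 and 16.8). The same held in chinmo, a BTB zinc finger gene, with 12.97, 14.1 and 7.09 in vas-GFP and 18.9 and 16.1 in w1118. Here and below, values are not scaled between libraries. All vas-GFP values lay below all w1118 values at 33.5% of the 11841 intervals with a peak in all 5 ovary libraries. The share was 17.9% over the 543 broad intervals, so such an order at a gene is not by itself a strain difference. In kek5, which encodes a leucine-rich repeat protein that acts on BMP signalling, the strains overlapped (15.7, 13.8 and 12.2 in vas-GFP, 14.1 and 18.6 in w1118). The remaining 6 lay in CG33158 and CG6959 or nearest to lncRNA:CR45476, CG5122, CG40498 and lncRNA:CR45303.

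**Figure D2:**
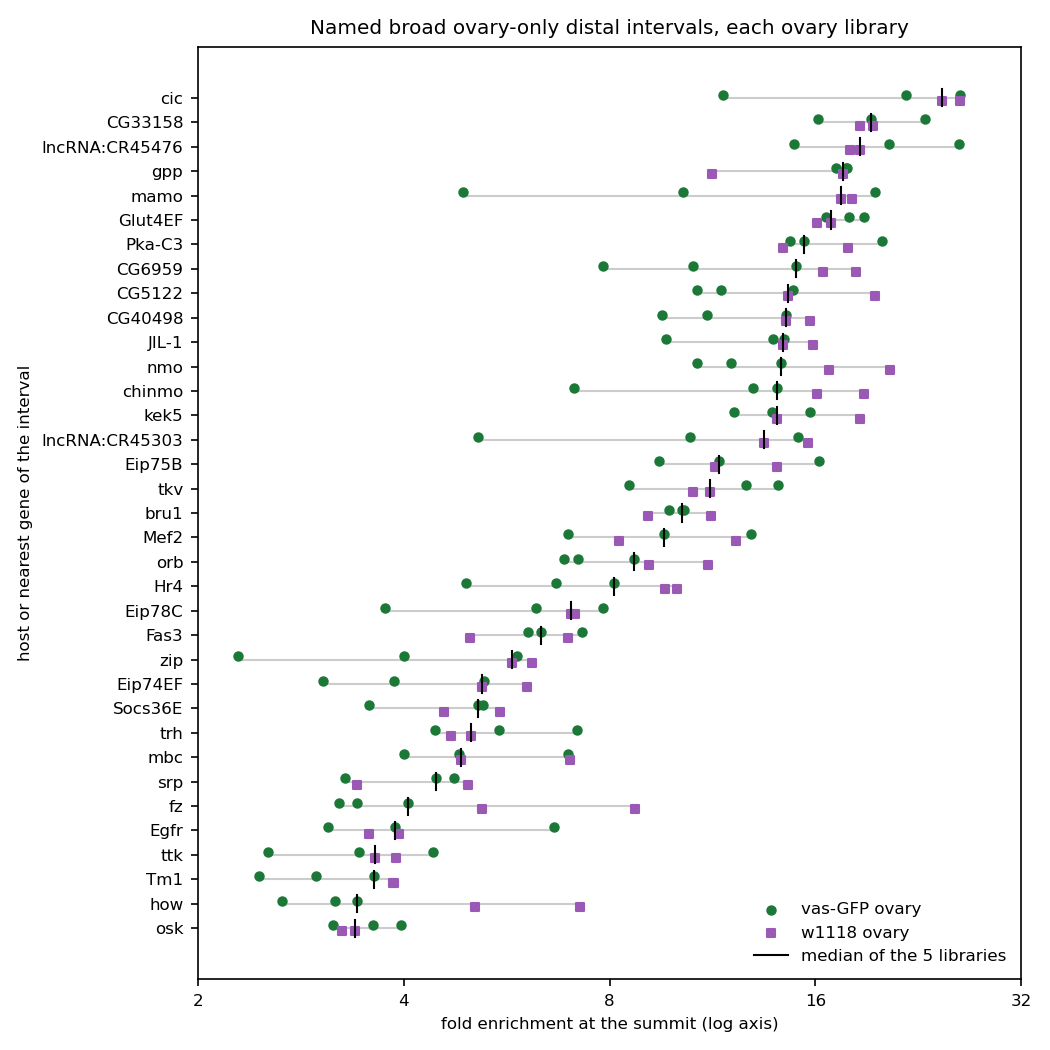
Fold enrichment at the summit (log axis) of the 35 named broad intervals in each ovary library, by host or nearest gene. Circles are the 3 vas-GFP libraries, squares the 2 w1118 libraries, the black tick their median and the grey line their range. The intervals run from osk (median 3.40) to cic (median 24.5), and the circles and squares mostly overlap.

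Over all 543 broad intervals, the highest library exceeded the lowest by a median factor of 1.72, and by at most 3.996. Their ranks were alike between libraries, with Spearman correlations between 0.54 and 0.77 across intervals. These correlations are descriptions, since libraries share the genome and the local sequence. The lowest value of any broad interval in any ovary library was a fold enrichment of 1.86.

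Some genes held several broad intervals. A host was taken as the gene whose span held the centre of the interval, or otherwise the gene of the nearest TSS. Broad intervals were hosted by 380 of 13968 protein-coding genes (2.72%), of which 289 had 1 and 91 had 2 or more. By all members, kek5, Glut4EF and sbb (Scribbler, a nuclear corepressor) had 6 each, and Eip75B, luna (a KLF-family factor), rdx (a BTB adaptor of Cullin-3 ligases) and Myo81F had 5 each. In Glut4EF all 6 were broad, and 3 more lay in the overlapping CG46467. Of those in Myo81F, a gene of 1965857 bp in heterochromatin, 4 of 5 were narrow. In kek5, 5 broad intervals stood within 15299 bp, the largest group in which neighbours were under 10 kb apart. Their median fold enrichments were 11.5, 6.34, 14.1, 4.13 and 8.64 in order along the X chromosome, and each of them lay 36.7 to 51.6 kb from the nearest TSS. In all, 186 of the 543 broad intervals stood in 86 such groups. How often other distal intervals form such groups was not counted, so grouping is not shown to be particular to these intervals.

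The tightest group of 3 spanned 995 bp of an intron of heca (Headcase), with medians of 5.33, 5.55 and 4.22. Next were 3 intervals within 3406 bp in cv-c, a RhoGAP gene (medians 3.16, 5.11 and 3.17), and 3 within 3660 bp in plh (8.60, 5.68 and 3.23). At Pka-C1, the main catalytic subunit of protein kinase A, 3 intervals and another nearest to lncRNA:CR44150 stood within 16824 bp, with medians between 3.27 and 8.46. The promoter of plh was itself open in ovaries alone, with a peak in each of the 5 ovary lists and no peak in the 4 OSC lists.

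Promoters of host genes were mostly open in both tissues. Of the 380 protein-coding hosts of broad intervals, 318 (83.7%) had a promoter peak in all 9 libraries, as did 44.8% of all protein-coding genes and 84.2% of the 511 hosts of distal intervals with a peak in all 9 libraries. For the 323 hosts of narrow intervals the share was 46.8%. A promoter peak in all ovary and no OSC libraries was found at 5 hosts of broad intervals (1.32%, against 0.573% of all protein-coding genes), which were plh, CG5958, CAH2 (a carbonic anhydrase), CG9864 and CG40498. No library had a promoter peak at 7 of the hosts, CG5122, CG43335, His1:CG33801, Mur11Da, CG31668, fd3F and beat-Ic.

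Hosts were long genes, with a median of 21530 bp, against 2164 bp over all protein-coding genes. Among genes over 20 kb, 203 of 1020 (19.9%) hosted a broad interval. Within this class, 63.1% of the hosts also had a distal interval open in all 4 OSC and no ovary library, as did 40.3% of all genes over 20 kb, and 51.7% had a distal interval open in all 9 libraries, as did 24.6% of all genes over 20 kb. Host length within the class still differed (median 43200 bp, against 37210 bp), and its part in these shares was not tested.

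Of 193 genes in 13 lists, chosen with earlier results of these data known, 22 hosted a broad interval. The counts below stand beside 2.72% of all protein-coding genes, but list genes differ in length. Germline piRNA pathway genes (0 of 13, median length 3559 bp), germline stem cell genes (0 of 17), eggshell and yolk genes (0 of 18) and housekeeping genes (0 of 13) had none. Among genes of oocyte RNA localization and translation, 3 of 17 did. In bru1, which encodes the repressor Bruno of oskar mRNA, the values were 9.78, 10.3 and 10.2 in vas-GFP and 11.2 and 9.09 in w1118. In orb, the CPEB protein of the oocyte, they were 7.18, 8.68 and 6.86 in vas-GFP, all below the 11.2 and 9.15 in w1118. An interval of 155 bp, 1249 bp from a TSS and nearest to that of osk, the organiser of germ plasm, had 3.16, 3.97 and 3.61 in vas-GFP and 3.40 and 3.25 in w1118.

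The ecdysone list had the highest share, with 6 of 16 genes (37.5%) and 12 broad intervals, and also the longest genes (median 36620 bp). Its share was higher for the other kinds of distal interval. Of the 16 genes, 8 (50%) hosted one open in all 9 libraries, and 8 (50%) hosted an OSC-only one. Eip75B, an ecdysone-induced nuclear receptor needed for mid-oogenesis, had 4. The strongest of them gave 11.6, 16.2 and 9.44 in vas-GFP ovaries and 14.1 and 11.4 in w1118 ovaries. Hr4, another nuclear receptor gene, had 3, of which the strongest gave 4.93, 8.11 and 6.67 in vas-GFP, all below the 10.0 and 9.64 in w1118. Eip74EF (an Ets factor) had 2, and Eip78C, ftz-f1 and EcR, the ecdysone receptor itself, had 1 each. The interval in EcR was the weakest of the list, with a median of 2.91.

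Genes of the somatic follicle epithelium hosted both ovary-only and OSC-only intervals. Of 16 follicle transcription factor genes, 1 (ttk, Tramtrack) hosted broad ovary-only intervals and 10 hosted a distal interval with a peak in all 4 OSC and no ovary libraries. Of 27 follicle signalling genes the numbers were 4 (tkv, Socs36E, fz and Egfr) and 17. The interval in tkv, the type I BMP receptor, was the strongest of these, with 14.1, 12.7 and 8.55 in vas-GFP and 10.6 and 11.2 in w1118. In fz, the Wnt receptor Frizzled, all vas-GFP values (4.06, 3.21 and 3.42) were below the w1118 values (5.21 and 8.71). The difference between the 2 kinds of interval was not tested for these lists, and the OSC-only set is larger (1790 distal intervals, against 543).

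Cytoskeleton and adhesion genes had 3 of 19, namely Fas3 (Fasciclin III, an adhesion protein of follicle cells), mbc (a Rac activator) and zip (nonmuscle myosin heavy chain). Genes of other cell types also appeared: 3 of 14 muscle genes (Mef2, Tm1 and how), 1 of 8 hemocyte genes (srp), 1 of 4 tracheal genes (trh) and 0 of 11 neuronal genes. At how, values were 2.66, 3.42 and 3.18 in vas-GFP, all below the 5.08 and 7.23 in w1118. Beside these, promoter peaks at the muscle genes Mhc and sls were found in vas-GFP libraries 1 and 3 and not in the other ovary libraries. Both genes also had one in Δl(3)mbt OSC library 1 and wild-type OSC library 1, so these peaks were not limited to whole ovaries. The part of these promoter peaks in the muscle intervals was not tested.

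**Figure D3:**
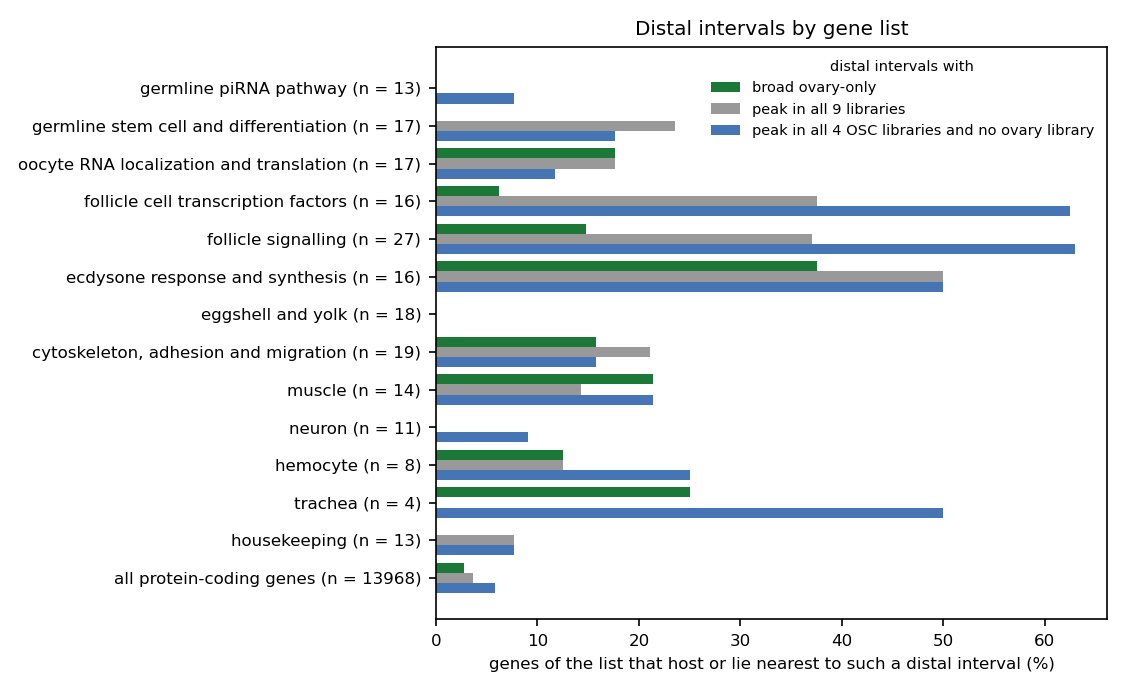
Percent of the genes in each list that host, or lie nearest to, a broad ovary-only distal interval (green), a distal interval with a peak in all 9 libraries (grey) or one with a peak in all 4 OSC and no ovary libraries (blue), with the number of genes after the name. The ecdysone list has the longest green bar (37.5%), and the 2 follicle lists have the longest blue bars (62.5% and 63.0%), against 2.72% and 5.87% of all protein-coding genes. Within the ecdysone list the grey and blue bars (50% each) are longer than the green one.

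By position, 80.1% of broad intervals were intronic, against 60.7% of all distal intervals and 74.1% of the 906 open in all 9 libraries, and 54.0% of narrow intervals were. Of the intronic broad intervals, 62.8% lay in an intron that is the first of a transcript, against 52.1% of all intronic distal intervals and 64.8% of those open in all 9 libraries. The median distance of the broad intervals from a TSS was 3841 bp, while that of the narrow ones was 5445 bp and that of all distal intervals 4986 bp. For distal intervals open in all 9 libraries it was 3540 bp. Broad intervals lay 3.49 to 4.06 per Mb on arms 2L, 2R, 3L and 3R and 4.97 per Mb on X, where all distal intervals were also densest (222 per Mb, against 188 to 204). Annotated mobile elements overlapped 2.76% of the broad and 2.26% of all distal intervals.

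For 349 of 543 broad intervals the nearest peak of any OSC library was within 1 kb, and the median distance was 684 bp. For the narrow intervals these values were 189 of 426 and 1210.5 bp. The OSC lists held 22037 to 59420 peaks each, and the distance for distal intervals at large was not computed. Closeness to OSC peaks is therefore not shown to be a trait of these intervals. The authors' merged OSC lists, which pool the reads of replicates and were not used in the choice, had a peak at 26 of the 543 (17 in wild type, 12 in Δl(3)mbt, 3 in both). Those peaks were weak, with median fold enrichments of 1.77 in Δl(3)mbt and 1.76 in wild type. Of the narrow intervals, 3 had such a peak.

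To see how the choice holds in a library it did not use, members were chosen from 8 libraries and the peak was looked up in the other. For the broad intervals, a peak was present in vas-GFP libraries 1, 2 and 3 at 91.8% of 599, 93.4% of 587 and 61.2% of 889, and in w1118 libraries at 95.5% of 584 and 99.1% of 553. Among all distal intervals of like width in the other 8 libraries, the share was 13.9% to 25.6%. In left-out OSC libraries, a peak appeared at 4.57% of 569 and 6.06% of 578 intervals in Δl(3)mbt, and at 20.4% of 682 and 1.81% of 553 in wild type, against 26.7% to 57.6% of all distal intervals of like width. Of all 26486 distal intervals, 11677 had a peak in 1 OSC library and no ovary library. The chosen intervals already shared the calls of the other ovary and OSC libraries, so part of each gap in this paragraph follows from the choice. The longest list, wild-type OSC library 1 with 59420 peaks, gave the highest share, and its peaks there had a median fold enrichment of 2.16. The shortest ovary list, vas-GFP library 3 with 16588 peaks, gave the lowest ovary share. Without that library the rule gave 1602 members, of which 889 were broad and 713 narrow. Narrow intervals were found in left-out ovary libraries at 59.7% to 99.8% and in left-out OSC libraries at 0.234% to 2.07%, against 6.49% to 17.9% and 3.18% to 26.1% of all narrow distal intervals.

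**Figure D4:**
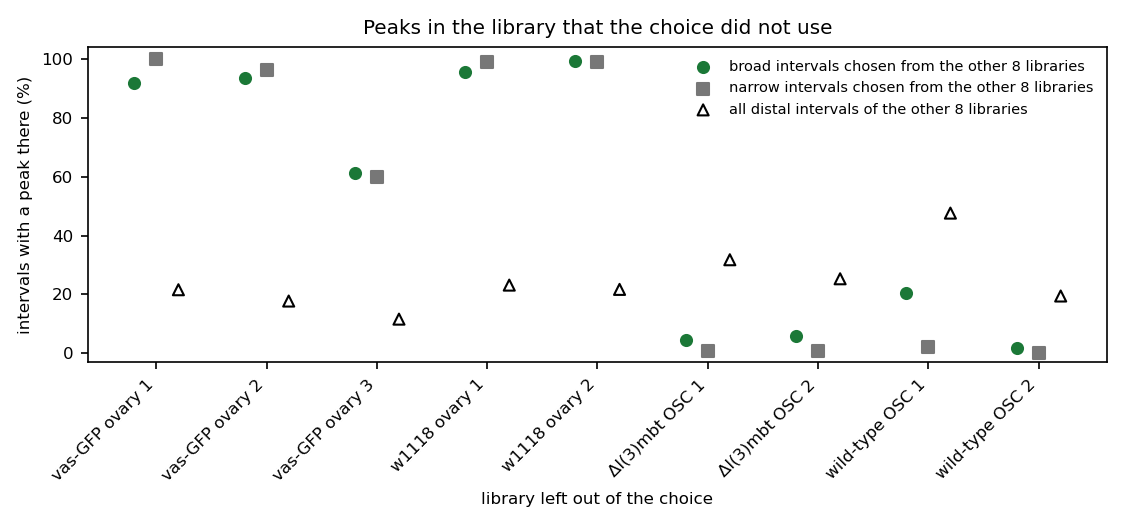
Percent of intervals, chosen from the other 8 libraries, with a peak in the library left out, by library. Green circles are broad ovary-only intervals, grey squares narrow ones, and open triangles all distal intervals of any width. The ovary libraries stand at 59.7% or more and the OSC libraries at 20.4% or less, with all distal intervals between 11.6% and 47.6%.

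The share of all peaks that were distal and noncoding did not separate the tissues. It was 29.6%, 27.4% and 22.0% in vas-GFP ovaries and 28.1% and 28.2% in w1118 ovaries, against 27.2% and 29.1% in Δl(3)mbt OSCs and 30.2% and 27.9% in wild-type OSCs (ovary minus OSC -1.52 percentage points, p = 0.48, two-sided exact permutation test). With peaks of 92 to 96 bp left out, an alternative added after the data were seen, the difference was -4.07 percentage points, given with no test since that width class was picked for its excess in ovaries.

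Sequence was not used in the choice. In windows of 100 bases either side of the strongest summit, the Ovo motif CCGTTA was found in 33 of 543 broad intervals (6.08%), against 3.05% of narrow intervals, 3.70% of all distal intervals, 4.64% of those open in all 9 libraries and 2.51% of the OSC-only ones. The E-box CACGTG was also in 33 (6.08%, against 3.54% of all distal intervals) and the Zelda motif CAGGTAG in 10 (1.84%, against 1.03%). The GAGA factor motif GAGAG was common and near the background, at 28.9% against 27.6%, while intervals open in all 9 libraries held it in 52.2%. The Scalloped motif GGAATG (44 of 543, or 8.10%, against 2913 of the 26479 distal intervals with a window) and the CA repeat CACACACA (8.29%, against 10.6%) were less frequent than in all distal intervals. The forkhead motif TGTTTAC was in 5.16% of broad against 4.18% of all distal intervals, the GATA motif AGATAA in 9.02% against 6.86%, AP-1 in 7.55% against 5.15% and STAT in 4.24% against 3.72%. C/EBP was in 76 of 543, against 13.9% of all distal intervals, and the Maf core in 14.7% against 14.1%. The nuclear receptor core AAGGTCA was in 1.84% against 1.57%, the Suppressor of Hairless motif GTGGGAA in 2.39% against 2.93%, and DREF in 0.184% against 0.363%. Among narrow intervals AGATAA (15.5%) and TTGCNNAA (21.1%) were more frequent. The shares depend on base composition too, and the median GC content of the windows was 43.8% in broad, 36.8% in narrow and 48.8% in all distal intervals. In 149 broad intervals none of the 15 motifs was found.

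The same motifs were compared between tissues with 1 value per library, the share of its distal peaks whose summit window held the motif. For Ovo this was 3.82%, 4.23% and 5.26% in vas-GFP ovaries and 4.42% and 4.42% in w1118 ovaries, against 3.30% and 3.10% in Δl(3)mbt OSCs and 3.59% and 3.21% in wild-type OSCs. The groups did not overlap, and the difference of 1.13 percentage points had an adjusted p = 0.048 (two-sided exact permutation test, Benjamini-Hochberg over 15 motifs). Zelda was higher by 0.50 points, with wild-type OSC library 1 (1.05%) inside the ovary range (1.11% ± 0.086 in ovaries, n = 5, and 0.603% ± 0.316 in OSCs, n = 4, SD; exact permutation test, adjusted p = 0.048). Scalloped (9.06% ± 0.179 in ovaries and 11.2% ± 0.557 in OSCs, SD), the Maf core (13.3% ± 0.671 and 15.6% ± 1.10) and Suppressor of Hairless (2.40% ± 0.161 and 3.02% ± 0.174) were lower in ovaries, each with an adjusted p = 0.040 in the exact permutation test. With peaks of 92 to 96 bp left out, the difference was -1.71 percentage points for the Maf core. For the E-box the shares were then 4.58% ± 0.616 in ovaries and 2.60% ± 0.758 in OSCs (SD). These values are given with no test, since that width class was picked for its excess in ovaries. In the narrower windows of 50 bases either side of the summit, the Maf core lost its call (difference -0.97 percentage points, adjusted p = 0.13, exact permutation test). GATA (0.96) and the CA repeat (-2.47) gained one there (adjusted p = 0.040 each, exact permutation test). With the wider windows and all distal peaks, no other motif passed the test. Among the 2000 strongest distal peaks of each library, the 5 motifs passed together with 5 others. These were GATA (1.23) and C/EBP (2.04), with an adjusted p = 0.036 each (exact permutation test). The rest were the E-box (2.45), the nuclear receptor core (0.47) and forkhead (-3.67), with an adjusted p = 0.020 each (exact permutation test). Leaving out any of 8 of the 9 libraries left 0 motifs past the exact permutation test, whose smallest unadjusted p is then 0.0286 (4 against 4) or 0.0179 (5 against 3), so these losses say little about the differences themselves. Without 1 library the differences, in percentage points, were 0.92 to 1.28 for Ovo, 0.43 to 0.65 for Zelda, -2.34 to -1.90 for Scalloped, -2.68 to -1.84 for the Maf core and -0.70 to -0.55 for Suppressor of Hairless. Without wild-type OSC library 1, 7 motifs passed, these 5 with E-box and forkhead. Median GC content of the windows also differed between the tissues, by -3.63 percentage points (ovary minus OSC, p = 0.024, exact permutation test), and its part in the motif shares was not tested.

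**Figure D5:**
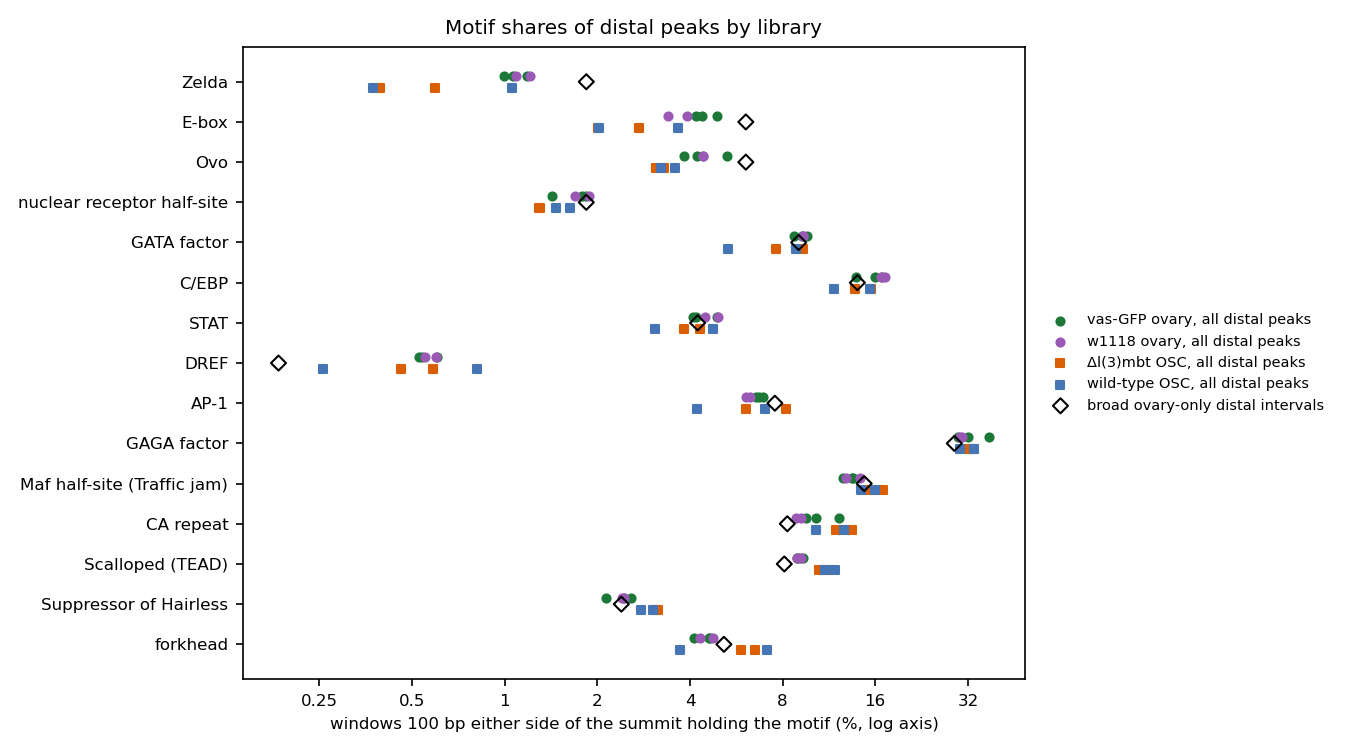
Percent of distal peaks of each library whose window (100 bases either side of the summit) holds each motif (log axis), with ovary libraries as circles and OSC libraries as squares, and the share over the 543 broad ovary-only distal intervals as an open diamond. Motifs are ordered by the ratio of the ovary mean to the OSC mean. For Ovo the 5 circles (3.82% to 5.26%) are right of the 4 squares (3.10% to 3.59%), and for Scalloped they are left of them.

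The choice did not compare the strains, but it asked for a peak in every library of both. Intervals with a peak in 1 strain alone could therefore not enter the fit below, and its calls say nothing about them. In a limma fit over the 11841 intervals with a peak in all 5 ovary libraries, on log2 fold enrichment centred on each library's median, 1 interval was higher in vas-GFP ovaries (0.00845%) and 0 were lower (0%) at an adjusted p under 0.05, and neither the broad nor the narrow members held a call. The called interval lay nearest to a TSS of Mef2 and was no member. At an unadjusted p under 0.05, 54 of the 543 broad and 105 of the 426 narrow intervals passed, as did 1357 of all 11841. The median log2 fold (vas-GFP over w1118) was 0.12 over the broad intervals and 0.34 over the narrow ones, beside 0.05 over all intervals. Without centring these medians were -0.13, 0.09 and -0.20, so the sign for the broad intervals turned with the scaling. The broad median stood 0.07 above that of all intervals in either case, as it must, since centring moves all intervals by the same amount. Set against distal intervals alone it stood -0.09 from their median, and it stood -0.07 from that of all intervals without w1118 library 1 but 0.22 above it without w1118 library 2, so neither its sign nor its size was stable. Before centring, all vas-GFP values were above all w1118 values at 25 broad and 36 narrow intervals (5.29% of all 11841), and below them at 97 broad and 4 narrow intervals (33.5% of all).

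The member nearest to a call, named after its values were seen, was an intergenic interval at chrX:58784-59155, 63338 bp from the nearest TSS, that of lncRNA:CR40469. Its fold enrichments were 10.6, 10.6 and 11.5 in vas-GFP ovaries, against 4.43 and 3.78 in w1118 ovaries, with no overlap. The log2 fold was 1.67 ± 0.20 (SE, n = 3 and 2, limma, adjusted p = 0.079). It passed when distal intervals alone were fitted (adjusted p = 0.0041), with log2(fold enrichment + 1) (adjusted p = 0.047) and without vas-GFP library 1 (adjusted p = 0.049). Of the named genes, how (log2 fold -0.73 ± 0.25, adjusted p = 0.40) and fz (-0.67 ± 0.25, adjusted p = 0.40) had the largest differences among the broad intervals, which did not pass the test.

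At the limits of the rule, intervals on either side had like values. Just inside the distance limit were those near RhoGDI (1002 bp from a TSS, median fold enrichment 4.51), Mhcl (1003 bp, 2.99) and CAH2 (1007 bp, 3.50), and just outside were those near Reph (1000 bp, 3.12), spdi (997 bp, 3.65) and CG7142 (992 bp, 5.78). In addition, 464 broad distal intervals had a peak in 4 ovary libraries and no OSC library, with a median fold enrichment of 4.08, and for 345 of them the missing library was vas-GFP library 3. A further 218 broad intervals had peaks throughout the ovary libraries and also in 1 OSC library, 143 of them in wild-type OSC library 1, with a median fold enrichment of 5.47 in ovaries and 2.15 in that OSC library.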

How the data were processed

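ATAC-seq was performed on 5 whole-ovary and 4 OSC libraries of Drosophila melanogaster. The authors trimmed reads with cutadapt 1.18, aligned them to dm6 with BWA, marked duplicates with Picard 2.9.0, filtered with SAMtools 1.9 and called peaks with MACS2 2.1.1.20160309 (no model, shift -37, extension 73, q of at most 0.05). The deposited narrowPeak lists give a fold enrichment ratio of the summit over local background, the −log10 of the p-value and q-value, and the summit offset in bp, with no read depth. The deposited DiffBind table holds the authors' own comparison and was not used.

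Overlapping peaks of the 9 lists were merged. Ensembl annotation gave 18277 genes and 24111 TSSs, and sequence came from RefSeq. Members and gene lists were chosen with earlier results of these data known. Named intervals were the 15 highest in median fold enrichment, the strongest of each list gene (up to 4 genes a list), hosts of most members, the tightest groups and those next to a limit. Shares per library were compared with two-sided exact permutation tests. Strain was fitted with limma 3.58.1 in R 4.3.3, with Benjamini-Hochberg adjustment, and the rule, permutation test and fit were tested on simulated data. Other steps used Python 3.11.15 and pandas 2.3.3. Alternatives included distance, merging, q, list length, scaling and leaving out each library.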

Additional observations from a re-analysis of the deposited data

Results flagged for a closer look

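Over 89 groups of 4 or 5 libraries, 5 held a library far from the others by Dixon's criterion, and chance flags about 1 in 20. In 3 of these the library was vas-GFP library 3, made from 30 ovaries, which had the shortest peak list: its share of distal peaks was low at 22.0%, and it held a peak at 61.2% of the broad and 59.7% of the narrow intervals chosen without it. The fold enrichment of the interval in gpp was low in w1118 library 1 (11.3), and that of the interval in Egfr was high in vas-GFP library 2 (6.64). The merged OSC lists, outside the choice of members, held a peak at 29 of the 969 intervals, 26 of them broad.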

How the results depend on the processing

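Of 327 alternative values, 228 kept their direction, side of the threshold and rough size. Counting peaks in at least 4 of 5 ovary libraries gave 1747 members (1007 broad, 740 narrow), and counting OSC peaks over 50% of the ovary interval alone gave 846 broad. Leaving out 1 library gave 980 to 1602 members (broad 553 to 889, narrow 427 to 713), the highest without vas-GFP library 3. The distal share difference was 0.34 percentage points (p = 0.87) for peaks over 500 bp from a TSS and -4.07 without peaks of 92 to 96 bp, an alternative added after the data were seen (two-sided exact permutation test, n = 5 and 4).

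Motifs past the test numbered 5, 6 within 50 bases of the summit, but 10 among the 2000 strongest distal peaks, 8 among these without peaks of 92 to 96 bp (also added later) and 0 to 7 without 1 library, where the smallest possible unadjusted p is 0.0286 (4 against 4) or 0.0179 (5 against 3). Signs turned, in percentage points, for DREF (-0.011) and AP-1 (-0.24) within 50 bases of the summit, for DREF (-0.16) and AP-1 (-1.04) in the 2000 strongest, for GAGA factor (2.11) without peaks of 92 to 96 bp, and with both changes for DREF (-0.048), GATA (-0.51), STAT (-0.17), AP-1 (-0.085) and the CA repeat (0.26). Without 1 library, GAGA factor ranged over -1.63 to 0.36, DREF over -0.056 to 0.13 and AP-1 over -0.60 to 0.73. None of these motifs passed the main test.

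Strain calls numbered 1 (0 members), but 5 (1 member) for distal intervals alone and 5 (1 member) with log2(fold enrichment + 1), and 0 to 4 (0 to 1 member) without 1 library. The causes were not tested, and read depth, not in peak lists, limits all presence calls. No paired analysis was possible because same-numbered libraries share no source in the labels and the vas-GFP numbers only follow the order of samples.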
